A study of Homo sapiens with 24 samples.

Results

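The genes described here are the expressed genes of the distal short arm of chromosome 3, called distal 3p below, in 2 human esophageal adenocarcinoma cell lines. They were chosen by position and level: gene start at or before 30 Mb on chromosome 3, and a mean raw count of at least 20 over the 12 libraries of SK-GT-4, with names starting RPL, RPS or NDUF left out. Of 58735 genes in the count table, 375 lie in that stretch. Of these, 274 were under the count limit and 2, RPL15 and RPL32, were left out by name, which left 99 members. They were selected on a measured value, since the stretch drew attention for its lower counts in the SK-GT-4 knockout clone, so the SK-GT-4 clone difference is a description here and carries no test. Among the members, 89 are protein-coding genes, 6 are antisense RNAs and 4 are pseudogenes.

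RNA was sequenced from 24 libraries of OE33 and SK-GT-4, in 8 groups of 3. The labels number the replicates of each group, and libraries with the same number in a line were read as 1 batch. In each line, Cas9 control cells (labelled cGAS WT, carrying the CRISPR vector without a guide) were compared with a cGAS knockout (cGAS KO), and both received either DMSO or 0.5 μM of the MPS1 inhibitor reversine (MPS1i) for 48 hours. All groups thus share a history of CRISPR vector transduction and selection. The study describes clones, the labels do not name them, and each genotype in a line was read as 1 clone, so the loss of cGAS and other differences between clones cannot be told apart.

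cGAS is an enzyme that binds double-stranded DNA in the cytosol and starts interferon signaling through STING. MPS1 is a kinase of the spindle checkpoint, and its inhibition makes chromosomes missegregate and form micronuclei. The end of the short arm of chromosome 3 carries genes with unrelated functions, among them the DNA glycosylase OGG1, the repair protein FANCD2, the ubiquitin ligase subunits VHL and CRBN and the nuclear receptors PPARG, THRB and RARB. It is best known in cancer biology for its frequent loss in kidney and lung carcinomas.

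The guide against CGAS, taken from the study's list of guides, is shown because it defines the knockout and because the members lie on another chromosome. It is printed 5′ to 3′ with the adjacent motif that Cas9 needs (PAM) in capitals.
CGAS guide and PAM: atccctccgtacgagaatggGGG
The 20-base guide matched chr6:73451711-73451730 on the plus strand of GRCh38, in exon 1 of CGAS, and this was its only perfect match next to an NGG PAM on chromosomes 3 and 6. Chromosome 3 held 0 sites with up to 4 mismatches next to an NGG PAM, counting both strands. This is a search of letters and not a measurement of cutting.

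CGAS itself was read first as a check of the labels, in TMM-scaled CPM (counts scaled to a common library size). In SK-GT-4, the Cas9 range was 15.3 to 26.1 CPM and the cGAS KO range 2.30 to 6.19 CPM. In OE33, the Cas9 range was 28.6 to 40.7 CPM, and 5 cGAS KO libraries had 2.23 to 2.72 CPM, while the OE33 library of cGAS KO with DMSO, replicate 2, had 15.3 CPM. Libraries held 15561268 to 25284177 counts. The 5 epithelial markers (EPCAM, CDH1, KRT8, KRT18, KRT19) were above 1 CPM in every library, and their summed level in SK-GT-4 was 3946 to 7803 CPM in Cas9 and 9697 to 14909 CPM in cGAS KO. The 5 leukocyte markers summed to 10.9 to 31.2 CPM in SK-GT-4 Cas9 and 3.70 to 13.6 CPM in cGAS KO, the 3 endothelial markers to 6.93 to 14.8 and 5.46 to 20.6 CPM, and the 4 fibroblast markers to 13.5 to 75.7 and 3.34 to 88.0 CPM. No such marker list exceeded 6.73 CPM in OE33. Whether the gap in epithelial markers bears on the distal 3p values was not tested. In SK-GT-4, replicate 2 of Cas9 with MPS1i and replicate 1 of cGAS KO with DMSO stood apart from the other libraries of their clones, at a median absolute deviation over genes of 0.61 and 0.82 on the log2 scale against 0.17 to 0.36 in the other 10. The count of members with all cGAS KO libraries below all Cas9 libraries is therefore also given without them. The other SK-GT-4 counts of this section include them.

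The distal 3p members had about 50% of the Cas9 level in SK-GT-4 cGAS KO cells. The median difference of cGAS KO minus Cas9, averaged over both treatments, was -0.97 on the log2 scale, or 51.2% of the Cas9 level, with quartiles of -1.24 and -0.66. In 94 of 99 members the cGAS KO level was the lower one. Over all 22782 genes tested the median was -0.02, with 51.0% of genes lower, and over the 653 expressed genes on the rest of chromosome 3 it was 0.02. In bulk RNA, fewer cells that express a gene and less of its RNA per cell cannot be told apart. DNA was not analysed here.

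The size of the gap differed between members. Of the 99 members, 50 were at 40% to 60% of the Cas9 level, 19 were under 40%, 18 were between 60% and 80%, 7 were between 80% and 100% and 5 were above 100%. In 45 members all 6 cGAS KO libraries lay below all 6 Cas9 libraries, against 3.55% of all genes tested, and in 1 member all 6 lay above, against 3.61%. Without the 2 libraries that stood apart, 73 members had all 5 cGAS KO libraries below all 5 Cas9 libraries, against 8.19% of all genes tested. The members were selected for this contrast, so these shares describe it and are no independent evidence.

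**Figure D1:**
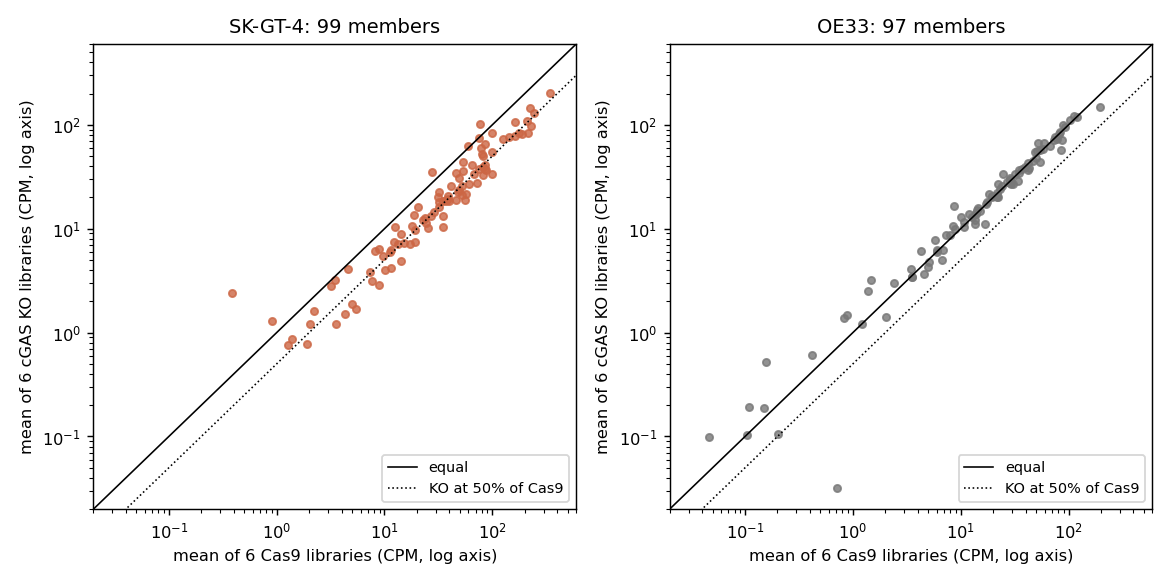
Mean level of each member in the 6 Cas9 libraries (x axis, CPM, log scale) and in the 6 cGAS KO libraries (y axis, CPM, log scale), for 99 members in SK-GT-4 and 97 in OE33. The solid line marks equal levels and the dotted line marks 50%. SK-GT-4 points follow the dotted line over the whole range of levels, and OE33 points follow the solid line.

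Every cGAS KO library of SK-GT-4 had this pattern. When each library was compared with the mean of the 6 Cas9 libraries, the median over members lay between -1.002 and -0.83 on the log2 scale in the 6 cGAS KO libraries and between -0.15 and 0.09 in the 6 Cas9 libraries, so the ranges did not overlap. The medians over all other expressed genes lay between -0.10 and 0.04 in those 12 libraries. Pairing cGAS KO with Cas9 by batch and treatment gave 6 medians between -1.02 and -0.86. Of the members, 60 were lower in 6 of 6 pairs, against 9.01% of all genes tested, and 87 in at least 5, against 24.9%. The choice of members used this contrast too. The library cGAS KO DMSO replicate 1, which stood apart, had the widest spread among members, with quartiles of -1.66 and -0.33, but its median of -0.83 was near the others.

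**Figure D2:**
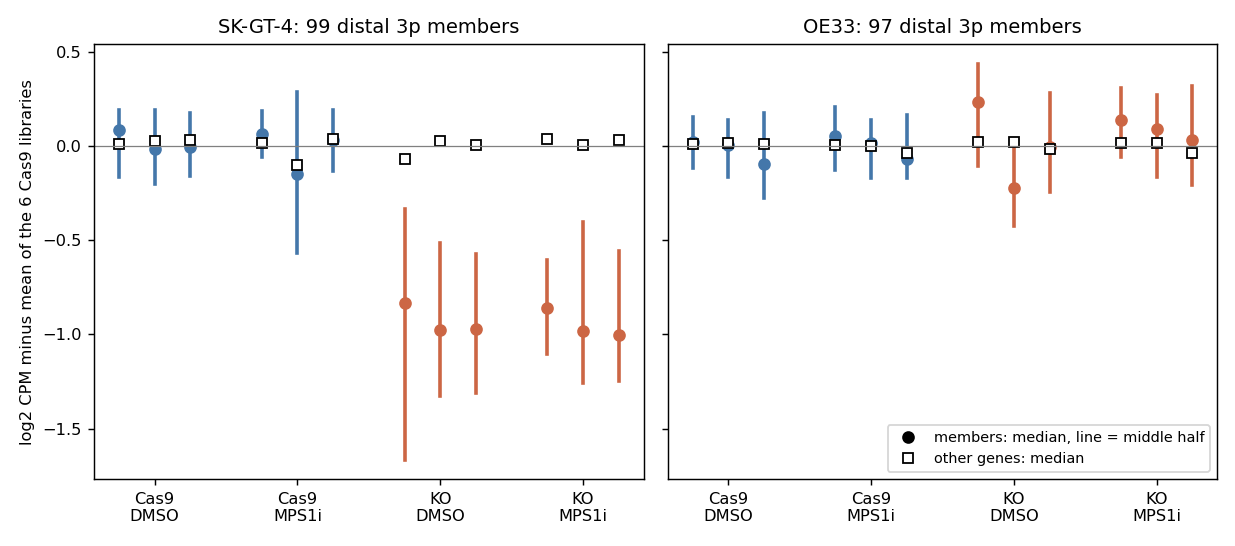
Log2 CPM of the members relative to the mean of the 6 Cas9 libraries of the same line, by library (replicates 1 to 3 from left to right in each group). Filled circles are medians over members, lines span their quartiles, and open squares are medians over all other genes with a mean count of at least 20. Medians lie between -1.002 and -0.83 in the SK-GT-4 cGAS KO libraries and between -0.22 and 0.24 in those of OE33.

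The gap had nearly the same size under both treatments, with a median of -0.98 in DMSO (93 of 99 members lower) and -0.94 in MPS1i (93 of 99 lower). By mean count, which the choice of members used, the median was -0.93, -1.04 and -0.91 in members with the lowest, middle and highest mean counts, split into 3 classes. By features that the choice did not use, it was -0.97 for genes on either strand, and lay between -0.98 and -0.95 for the longest, middle and shortest genes, split likewise. The 10 antisense RNAs and pseudogenes had a median of -0.61, with 10 of 10 lower, against -0.98 for the 89 protein-coding members. The files do not say whether counting used the strand, so reads of overlapping genes on opposite strands may be mixed. The 62 genes of the same stretch that were under the count limit but could be tested had a median of -0.90, with 49 lower.

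Along the chromosome, the window medians changed in a step. In windows of 5 Mb, the SK-GT-4 medians were -1.16, -0.95, -0.93, -1.04 and -1.12 from the tip to 25 Mb, -0.80 from 25 to 30 Mb, and 0.16 from 30 to 35 Mb. The other 28 windows of chromosome 3 with at least 8 genes had medians between -0.31 and 0.27. Of 498 such windows outside distal 3p, which had medians between -0.84 and 1.00, 1 was at or below the highest of the 6 distal 3p windows, and it lies at the end of chromosome 6, starting at 165 Mb. In OE33 the 6 distal 3p windows had medians between -0.27 and 0.09.

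**Figure D3:**
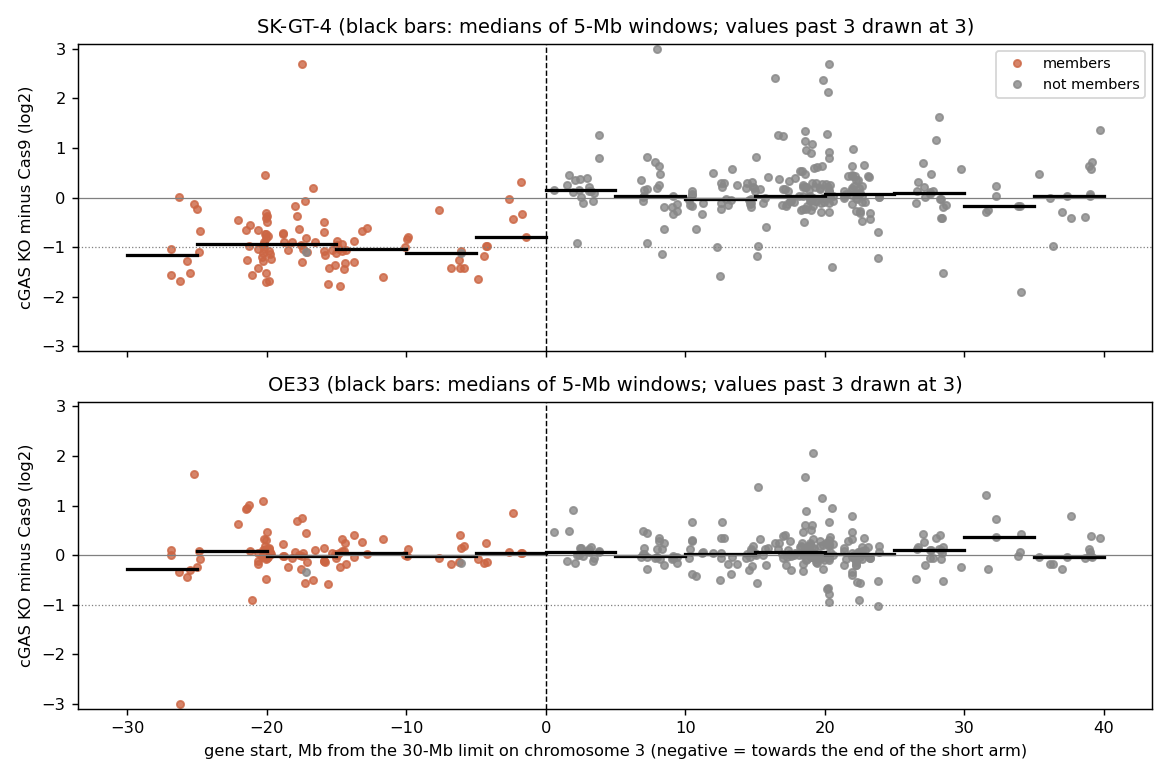
Difference of cGAS KO minus Cas9 (log2, mean of both treatments) for each expressed gene of distal chromosome 3, by the distance of its start from the 30-Mb limit in Mb. Orange points are members, grey points are not (the 2 grey points left of the limit are RPL32 and RPL15), black bars are medians of 5-Mb windows, and values beyond 3 are drawn at 3. In SK-GT-4, points left of about -4 Mb centre on -1 and points right of it centre on 0, whereas OE33 points centre on 0 throughout.

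At the level of single genes, the step lay inside the limit that defines the members. NGLY1 and OXSM were the last members before it, and the 9 members that start between 23.2 and 25.8 Mb had a median of -1.25, with 9 of 9 lower. After a stretch of 1.58 Mb without a member came SLC4A7, a bicarbonate transporter, and the 5 members from there on had a median of -0.34 and a range from -0.80 to 0.32. Low values did not end there altogether, since RBMS3, the last member, was at -0.80, and LINC01967, under the count limit and starting at 27.9 Mb, was at -1.11, with mean Cas9 levels of 1.38 and 1.19 CPM. Past the limit, CMTM8, which starts at 32.2 Mb and was named after its value was seen, was at -0.92. Its means were 5.89 CPM in Cas9 and 3.02 CPM in cGAS KO. Of the 18 expressed genes from 30 to 35 Mb, 3 were lower, CMTM8 among them. NGLY1, which removes N-glycans from misfolded proteins (chr3:25718944-25790039), had 30.9, 39.5 and 45.0 CPM as its lowest, median and highest Cas9 values and 16.2, 16.8 and 31.5 CPM in cGAS KO. SLC4A7 (chr3:27372721-27484420) had 31.1, 57.3 and 80.2 CPM in Cas9 and 20.2, 65.2 and 98.4 CPM in cGAS KO. The NGLY1 groups overlapped at the cGAS KO library that stood apart, and the SLC4A7 groups overlapped throughout. The step was noticed, and NGLY1 and OXSM were picked, after the values were seen, and with members cut off at 26 Mb the SK-GT-4 median was -0.99, with 90 of 94 lower.

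The last 3 members inside the limit were CMC1, a mitochondrial cytochrome c oxidase assembly factor (0.32 on the log2 scale), AZI2, an adaptor of the TBK1 kinase (-0.34), and RBMS3, an RNA-binding protein (-0.80 at a median of 1.38 CPM in Cas9). The first 3 expressed genes outside it were the TGF-β receptor TGFBR2 (0.16), the oligosaccharyltransferase subunit STT3B (0.25) and the lipid-binding protein OSBPL10 (0.45). At the count limit, IL17RE (0.46) and CAND2 (-0.81), both with a mean count of 22.4, were just inside, and LINC01967 (-1.11, mean count 18.6) and TTLL3 (-0.86, mean count 17.8) were just outside. Of the genes left out by name, RPL15 was at -1.12 and RPL32 at -1.11. Both encode proteins of the large ribosomal subunit and have many pseudogene copies, so their counts are uncertain.

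The 250 bases before the RefSeq start of NGLY1 and of SLC4A7 are shown with capitals for CCAAT and GGGCGG on either strand. These are the protein-coding members on both sides of the step with a sequence at hand. The sequences come from RefSeq (GRCh38.p14), with 1 entry used per gene, and run 5′ to 3′ on the minus strand, on which both genes lie. The SLC4A7 stretch begins inside the gene span given above, and the NGLY1 stretch lies within the span of OXSM.
NGLY1 (chr3:25790040-25790289): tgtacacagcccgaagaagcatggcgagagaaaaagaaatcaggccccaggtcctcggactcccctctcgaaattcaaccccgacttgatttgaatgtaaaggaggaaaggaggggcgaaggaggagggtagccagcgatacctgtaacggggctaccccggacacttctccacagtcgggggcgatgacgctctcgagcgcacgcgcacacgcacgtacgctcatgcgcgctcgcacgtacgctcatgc
SLC4A7 (chr3:27484385-27484634): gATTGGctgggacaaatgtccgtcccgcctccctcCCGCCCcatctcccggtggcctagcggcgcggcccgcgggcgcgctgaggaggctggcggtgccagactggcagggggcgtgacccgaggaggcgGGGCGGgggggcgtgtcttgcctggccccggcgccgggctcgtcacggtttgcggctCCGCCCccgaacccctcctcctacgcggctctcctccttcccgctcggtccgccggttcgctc
NGLY1 held 0 matches of either motif and SLC4A7 held 1 CCAAT and 3 GGGCGG. Of the 85 members with a promoter entry, 32.9% held CCAAT, 62.4% GGGCGG, 8.2% CACGTG and 3.5% TGACGTCA. Among the 9923 promoters of genes with a mean count of at least 20, the shares were 34.8%, 68.3%, 8.8% and 2.8%, and among all 27305 promoters they were 33.0%, 42.3%, 6.5% and 1.8%. Median GC content was 64.8% for members, 65.2% for expressed genes and 58.0% for all. The members' promoters thus held these motifs about as often as those of other expressed genes.

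The members have unrelated roles, and they were sorted into 10 lists that hold 80 of the 99. All 10 lists had a negative median in SK-GT-4. Values in the following paragraphs are the lowest, median and highest CPM of 6 libraries, and differences are cGAS KO minus Cas9 on the log2 scale with their standard error.

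**Figure D4:**
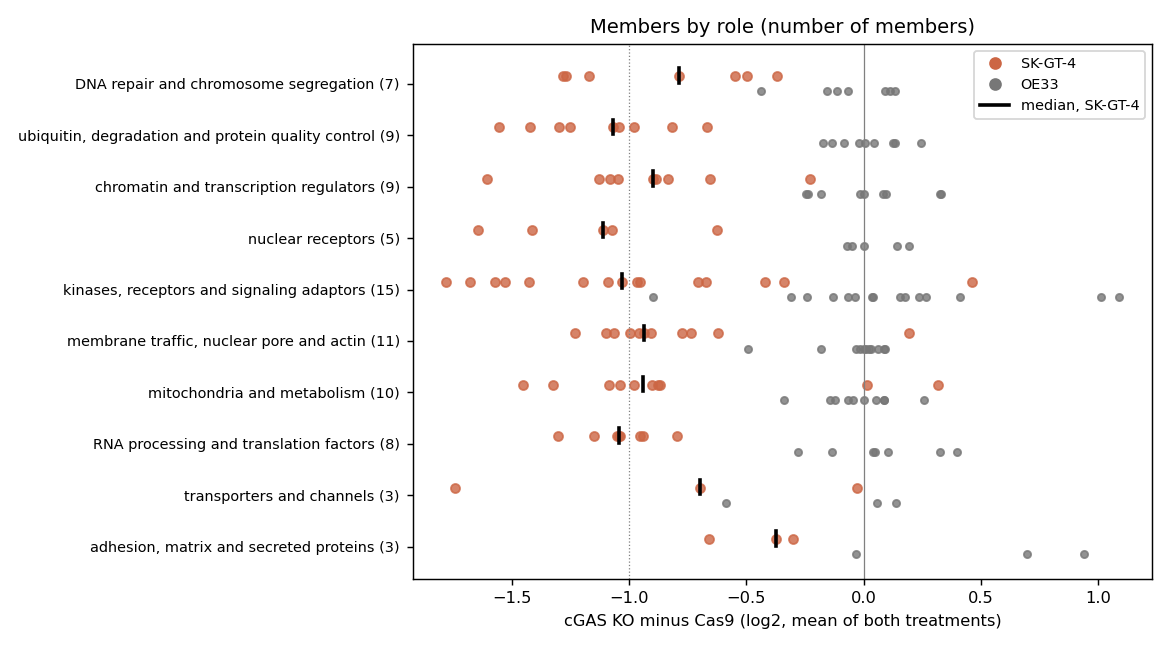
Difference of cGAS KO minus Cas9 (log2, mean of both treatments) for the members of each role list, in SK-GT-4 (orange) and OE33 (grey), with the SK-GT-4 median as a black bar. Medians run from -1.11 for nuclear receptors to -0.37 for adhesion, matrix and secreted proteins in SK-GT-4, and most grey points lie near 0.

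All 7 DNA repair and chromosome segregation members were lower, with a median of -0.79. OGG1, which excises oxidized guanine (chr3:9749944-9788219), had 31.0, 47.0 and 54.9 CPM in Cas9 and 13.8, 19 and 23 CPM in cGAS KO, a difference of -1.28 ± 0.15. TOP2B, a DNA topoisomerase (chr3:25597905-25664907), had 57.1, 88.9 and 103 CPM in Cas9 and 30.6, 34.0 and 51.8 CPM in cGAS KO (-1.17 ± 0.19). In both genes the groups did not overlap. RAD18, a ubiquitin ligase of damage tolerance, was at -0.55 ± 0.16, and FANCD2, the central protein of the Fanconi anemia pathway, was at -0.37 ± 0.18, with 54.2, 88.7 and 103 CPM against 46.9, 69.4 and 76.9 CPM. The FANCD2 groups overlapped, with the lowest Cas9 value in the library that stood apart. The gene has pseudogene copies nearby that may take or lend reads.

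The ubiquitin, degradation and protein quality control members were lower in 9 of 9, with a median of -1.07. MKRN2, a ubiquitin ligase (chr3:12557014-12583713), had 42.7, 82.3 and 105 CPM in Cas9 and 25.7, 30.5 and 50.6 CPM in cGAS KO (-1.30 ± 0.20). The ubiquitin-conjugating enzyme UBE2E1 was at -1.25 ± 0.22, the membrane protein insertase subunit EMC3 at -0.82 ± 0.17 and EDEM1, which directs misfolded glycoproteins to degradation, at -0.67 ± 0.15. EMC3 and EDEM1 had all cGAS KO libraries below all Cas9 libraries, while MKRN2 and UBE2E1 overlapped through 1 of the 2 libraries that stood apart. VHL and CRBN, named here after their values were seen because they are well known, had differences of -1.07 ± 0.30 and -1.55 ± 0.18. VHL, the substrate receptor for hypoxia-inducible factors, had 6.97, 12 and 12.9 CPM in Cas9 and 2.85, 5.36 and 10.7 CPM in cGAS KO, and its groups met only at the Cas9 library that stood apart. CRBN, the target of thalidomide, had 47.2, 52.2 and 72.2 CPM and 14.0, 17.8 and 26.3 CPM, and its groups did not.

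Among transcription regulators, all 9 chromatin and transcription members were lower, with a median of -0.90. EAF1, a partner of the ELL elongation factors (chr3:15427355-15450635), had 39.6, 49.3 and 51.2 CPM in Cas9 and 18.9, 22.6 and 25.6 CPM in cGAS KO (-1.08 ± 0.14), without overlap. The acetyltransferase complex subunit TADA3 was at -0.90 ± 0.21, VGLL4, which binds TEAD factors, at -1.05 ± 0.35 and the circadian and hypoxia-responsive repressor BHLHE40 at -0.23 ± 0.26. BHLHE40 was lower in 3 of 6 pairs.

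All 5 nuclear receptor members were lower, with the lowest median of any list at -1.11. THRB, a thyroid hormone receptor (chr3:24117153-24495756), had 27.7, 37.1 and 39.5 CPM in Cas9 and 10.2, 12.5 and 19.1 CPM in cGAS KO (-1.41 ± 0.19). NR1D2, a heme-binding repressor of the clock, had 67.3, 82.6 and 111 CPM and 28.3, 42.3 and 55.1 CPM (-1.07 ± 0.15). PPARG, a lipid sensor of fat and epithelial cells (chr3:12287368-12434356), had 140, 155 and 204 CPM and 94.1, 102 and 131 CPM (-0.62 ± 0.14). In these 3 receptors no cGAS KO library reached a Cas9 library. NR2C2, an orphan receptor, was at -1.11 ± 0.49, and its wide error comes with a Cas9 value of 6.17 CPM and a cGAS KO value of 2.02 CPM in the libraries that stood apart.

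The kinases, receptors and signaling adaptors were lower in 14 of 15, with a median of -1.03. The phosphoinositide phosphatase MTMR14 was at -1.19 ± 0.16, the histamine receptor HRH1 at -0.71 ± 0.30 and the interleukin-17 receptor subunit IL17RC at -0.42 ± 0.20. IRAK2, a kinase of Toll-like receptor signaling, and SH3BP5, an activator of Rab11, belong to the 5 lowest members. IRAK2 had 21.1, 27.1 and 60.2 CPM in Cas9 and 7.33, 9.48 and 17.5 CPM in cGAS KO (-1.68 ± 0.20), without overlap. SH3BP5, at the lowest value of all (-1.78 ± 0.55), had 0.865, 6.20 and 7.44 CPM and 0.357, 1.93 and 2.62 CPM.

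Membrane traffic, nuclear pore and actin members were lower in 10 of 11, with a median of -0.94. SEC13, shared by the COPII coat and the nuclear pore (chr3:10293131-10321178), had 204, 222 and 254 CPM in Cas9 and 81.3, 91.8 and 123 CPM in cGAS KO (-1.23 ± 0.14). BRK1, a small subunit of the WAVE actin complex, had 298, 340 and 390 CPM and 148, 209 and 260 CPM (-0.77 ± 0.15). Neither gene overlapped between the clones. BRK1 had the highest Cas9 level per length of all members, at 279 CPM per kilobase. ARPC4, a subunit of the Arp2/3 complex, was at -0.94 ± 0.32, and its highest values, 524 CPM in Cas9 and 279 CPM in cGAS KO, fell in the libraries that stood apart.

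**Figure D5:**
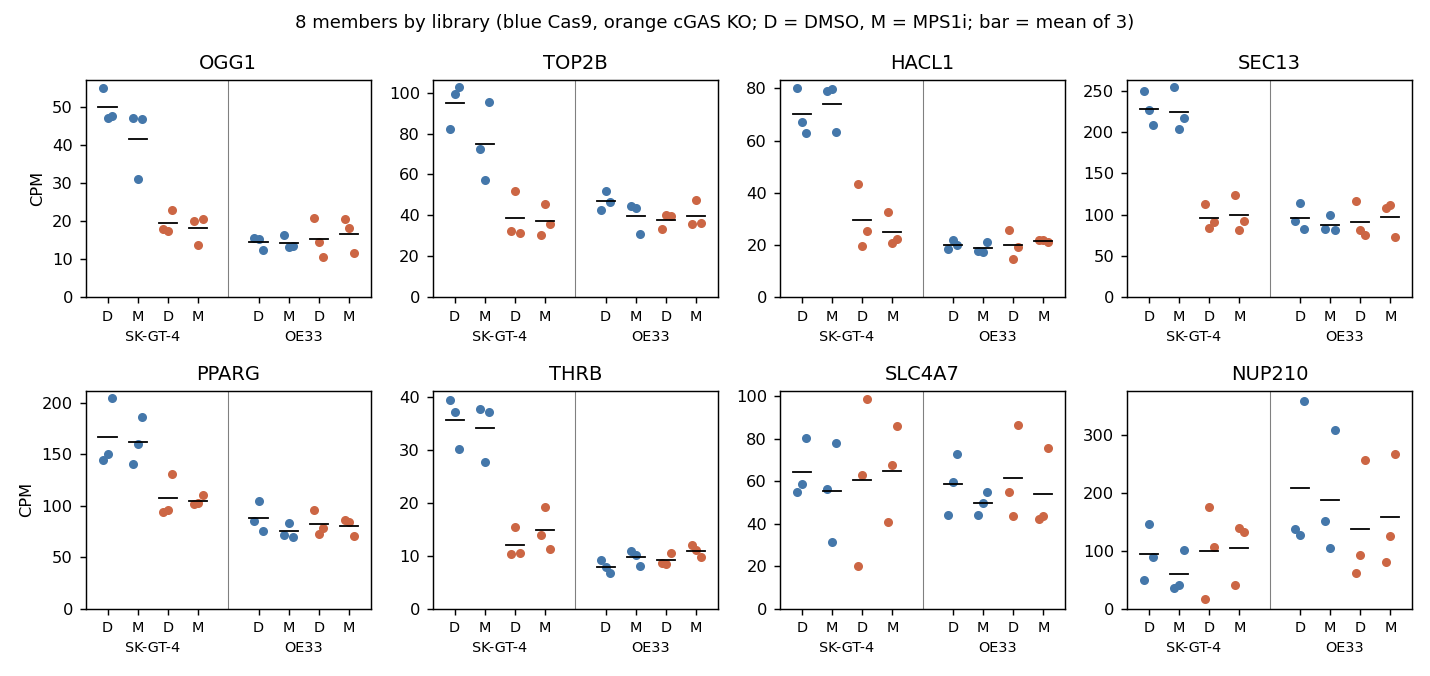
CPM of 8 members in each library of SK-GT-4 and OE33 (blue Cas9, orange cGAS KO, D for DMSO, M for MPS1i, bars are means of 3 libraries). OGG1, TOP2B, HACL1, SEC13, PPARG and THRB separate the SK-GT-4 clones without overlap, and SLC4A7 and NUP210 do not separate them.

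The mitochondria and metabolism members were lower in 8 of 10, with a median of -0.94. HACL1, a peroxisomal lyase of fatty acid oxidation (chr3:15560704-15601852), had 63.0, 73.2 and 80.01 CPM in Cas9 and 19.5, 23.8 and 43.3 CPM in cGAS KO (-1.45 ± 0.17), without overlap. The mitochondrial RNA modification factor RPUSD3 was at -1.04 ± 0.15, without overlap, and the mitochondrial ribosomal protein MRPS25 at -0.87 ± 0.32. All 8 RNA processing and translation members were lower, with a median of -1.04. DPH3, a diphthamide synthesis factor, was at -1.30 ± 0.17, and THUMPD3, a tRNA methyltransferase, at -1.04 ± 0.14, and neither overlapped. LSM3, a subunit of the Sm-like rings on U6 RNA, was at -1.15 ± 0.37, and TRNT1, which adds CCA ends to tRNAs, at -1.04 ± 0.24.

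The other lists held 3 members each. Among transporters and channels (median -0.70), the taurine transporter SLC6A6 had 34.2, 110 and 136 CPM in Cas9 and 7.08, 32.3 and 59.7 CPM in cGAS KO (-1.74 ± 0.48), and the nuclear envelope protein TMEM43 was at -0.70 ± 0.21. The list named adhesion, matrix and secreted proteins had the smallest gap (median -0.37), but that name fits its members only loosely. They were the LIM protein LMCD1 at -0.66 ± 0.14, the metalloproteinase inhibitor TIMP4 at -0.37 ± 0.15 and CRELD1, an endoplasmic reticulum protein, at -0.30 ± 0.18. Of these 3, LMCD1 had groups without overlap. The remaining 2 of the 5 lowest members were the membrane protein LRRN1 (-1.68 ± 0.30, without overlap) and the antisense RNA PRRT3-AS1 (-1.71 ± 0.32), which overlaps PRRT3 (-1.52 ± 0.24).

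Of the 5 members that were not lower in SK-GT-4 cGAS KO, 4 are described here. IL17RE (0.46 ± 0.28) was near the count limit, and CMC1 (0.32 ± 0.27) lies beyond the step. SUMF1, which activates sulfatases (chr3:3700814-4467281), was at 0.01 ± 0.17, with 64.1, 69.0 and 113 CPM in Cas9 and 59.2, 76.6 and 86.0 CPM in cGAS KO. NUP210, a nuclear pore membrane protein, was at 0.19 ± 0.33, with 35.4, 69.2 and 146 CPM and 16.3, 120 and 175 CPM. The groups of SUMF1 and NUP210 overlapped throughout.

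In OE33, the same genes did not share this gap. Of the 99 members, 97 passed the filter on low counts (RBMS3 and GRIP2 did not), and their median difference of cGAS KO minus Cas9 was 0.03, with 40 of 97 lower. At 40% to 60% of the Cas9 level lay 1 member, where SK-GT-4 had 50. By edgeR's quasi-likelihood test over all 20426 genes, at an adjusted p of at most 0.01, 3 members were lower and 2 were higher, or 3.09% and 2.06% of members against 3.97% and 5.41% of all genes. In 1 member all 6 cGAS KO libraries lay below all 6 Cas9 libraries, against 1.68% of all genes, and in 0 members they lay above, against 2.04%. The shares in OE33 were thus at or below the background. By pairs of the same batch and treatment, 6 of 97 members were higher in 6 of 6 pairs, against 9.72% of all genes, and 5 of these were also lower in 6 of 6 SK-GT-4 pairs, against 0.893% of the genes tested in both lines. The SK-GT-4 side of that count was used in the choice of members. The per-library medians of the OE33 cGAS KO clone lay between -0.22 and 0.24, and the lowest was that of cGAS KO DMSO replicate 2, the library with 15.3 CPM of CGAS. Without it the median difference was 0.07, with 4 members called lower and 6 called higher. The share of all genes called without that library was not computed.

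LRRN1 was the member with the smallest p in OE33. It had 0.302 to 1.13 CPM in the 6 Cas9 libraries, 83 counts in all, and 4 counts in all in the 6 cGAS KO libraries, of which 4 had none (edgeR's quasi-likelihood test, adjusted p = 0.000118). At such counts the fitted fold is not a usable size. SLC6A6 fell by 0.59 ± 0.10 on the log2 scale (adjusted p = 0.00055, edgeR), from 55.7, 78.1 and 132 CPM to 33.6, 51.9 and 90.9 CPM, and TMEM40, a transmembrane protein, fell by 0.56 ± 0.14 (adjusted p = 0.00934, edgeR). LMCD1 rose by 0.94 ± 0.15 (adjusted p = 0.000448, edgeR), from 6.64, 8.52 and 10.1 CPM to 9.26, 17.7 and 21.5 CPM, and the kinase CAMK1 rose by 1.09 ± 0.20 (adjusted p = 0.00125, edgeR), from 1.18, 1.36 and 1.98 CPM to 1.40, 2.96 and 5.00 CPM. LRRN1 and SLC6A6 were thus lower in cGAS KO in both lines, and LMCD1 and CAMK1 were higher in OE33 and lower in SK-GT-4. In OE33 the ranges overlapped in SLC6A6, LMCD1, CAMK1 and TMEM40. Without replicate 1, LMCD1, CAMK1 and TMEM40 lost their calls (adjusted p from 0.0131 to 0.108, edgeR). Without replicate 3, none of these 5 calls remained (adjusted p from 0.0157 to 0.0994, edgeR). Without the block by batch, LRRN1 alone kept its call (adjusted p = 0.00219, edgeR), and the other 4 had adjusted p from 0.0147 to 0.317.

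In OE33, OGG1 had 12.5, 14.4 and 16.4 CPM in Cas9 and 10.5, 16.3 and 20.7 CPM in cGAS KO, and SEC13 had 81.5, 87.6 and 114 CPM and 72.3, 95.0 and 117 CPM. The clones overlapped in both genes. Medians of the role lists in OE33 lay between -0.07 and 0.06, apart from the list named adhesion, matrix and secreted proteins at 0.70. Of its 3 members, TIMP4 was at 0.554 to 2.05 CPM in all libraries.

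No member, and almost no other gene, was called for MPS1i by the edgeR fit in either clone of either line. By edgeR's quasi-likelihood test, 0 members reached an adjusted p of 0.01 for MPS1i against DMSO, against 0% of all genes in both SK-GT-4 clones and in OE33 cGAS KO and 0.0049% in OE33 Cas9. DESeq2 also called 0 members, and its share over all genes is not given here. Since the edgeR fit called almost no gene, a count of 0 says nothing particular to the members. The study reported MPS1i-induced genes in both lines at the same adjusted p, by DESeq2 after batch correction. At an unadjusted p under 0.05, edgeR gave 2 of 99 members in SK-GT-4 Cas9 (2.48% of all genes), 3 of 99 in SK-GT-4 cGAS KO (1.39%), 3 of 97 in OE33 Cas9 (6.95%) and 10 of 97 in OE33 cGAS KO (6.95%). In OE33 cGAS KO, 70 of 97 members were higher with MPS1i, at a median of 0.11 on the log2 scale. Over all genes tested, 10290 of 20426 were higher, at a median of 0.00. That comparison rests partly on cGAS KO DMSO replicate 2, whose members were the lowest of the line. The biological coefficient of variation was 34% in SK-GT-4 and 15% in OE33, so small effects were harder to detect in SK-GT-4.

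The gap between the clones did not differ detectably between treatments, in edgeR fits that called 0 genes for such a difference. The interaction called 0 members in either line at an adjusted p of at most 0.01 by edgeR, against 0% of all genes. It also called 0 members by DESeq2, for which the share over all genes is not given here. At an unadjusted p under 0.05 there were 3 of 99 members in SK-GT-4 (2.41% of all genes) and 2 of 97 in OE33 (1.88%). The OE33 interaction was above 0 in 69 of 97 members, at a median of 0.08, against 10207 of 20426 genes and a median of -0.0002. In SK-GT-4 it was above 0 in 53 of 99 members, against 11554 of 22782 genes. The OE33 value also rests partly on cGAS KO DMSO replicate 2. The members with the smallest p for MPS1i were TMEM40 (0.96 ± 0.36, adjusted p = 0.981) and the pseudogene HMGB1P5 (-0.62 ± 0.27, adjusted p = 0.981) in SK-GT-4 Cas9, by edgeR. In SK-GT-4 cGAS KO they were PRRT3-AS1 (-1.48 ± 0.46) and PRRT3 (-0.90 ± 0.34), both at an adjusted p of 0.966 by edgeR. In OE33 they were NR1D2 (0.31 ± 0.11, adjusted p = 0.608) and TMEM40 (0.48 ± 0.19, adjusted p = 0.661) in Cas9, and SUMF1 (0.40 ± 0.12, adjusted p = 0.59) and TMEM40 (0.51 ± 0.20, adjusted p = 0.623) in cGAS KO, by edgeR. For the interaction they were TMEM40 (-1.32 ± 0.51) and PRRT3-AS1 (-1.52 ± 0.62) in SK-GT-4, both at an adjusted p of 0.823 by edgeR, and IL17RE (0.53 ± 0.22) and SUMF1 (0.37 ± 0.17) in OE33. TMEM40 thus came up in both lines at an unadjusted level and passed the adjustment in none of them.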

How the data were processed

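The deposited values are raw counts per gene. Per the labels and the study's methods, they come from poly(A)-selected libraries read from both ends (150 bases each), with HISAT2 2.0.5 as aligner, GRCh38 as genome and featureCounts 1.5.0 as counter. Annotation release, strand setting and treatment of multimapping reads are not given in the sources used here. The table holds 58735 genes and 24 libraries, and 0 sample columns lacked a sample.

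Each line was fitted in R 4.3.3 with edgeR 4.0.16 (TMM, a term per group, a block per batch) after the study's filter (total count of at least 5, nonzero in at least 4 of 12 libraries). It was tested by the quasi-likelihood test with Benjamini-Hochberg adjustment over all genes, and genes were called at 0.01. The labels give replicate numbers and no batch. Equal numbers were read as the same batch, since the study paired libraries by batch number. Deviations of libraries sharing a batch had a median correlation across genes of 0.40 in SK-GT-4 (-0.66 to 0.72) and 0.47 in OE33 (0.05 to 0.74), against -0.17 and -0.25 for other pairs. None of the 24 library pairs within groups agreed within sampling noise. Log2 CPM used a prior count of 2. The fit was run on simulated counts with known fold changes, as a check on the median size of the change. The simulated counts held no batch effect, and the share of changed genes that was called is not given here. P-values measure the spread between batches of 1 clone, and counting error sets the precision of low counts.

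The members and all lists were chosen with earlier results of these data known. The 10 role lists and the marker lists came from general knowledge, and 2 further lists were added after values were seen. The text names CGAS, up to 4 members of each role list by mean count, the 5 lowest and 5 highest SK-GT-4 differences, genes next to both limits, the genes left out by name, the 5 smallest p in OE33, and members called for MPS1i or the interaction (the 2 smallest p where none was). Some members that this rule would name are not reported here. Alternatives were fits without the block or with batches nested in genotype, other filters, scalings and limits, DESeq2 1.42.0 and libraries or batches left out. Promoter and guide searches used Python 3.11.15.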

Additional observations from a re-analysis of the deposited data

Results flagged for a closer look

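Groups of 3 libraries are too small for the test of single outlying samples. In 5 members, cGAS KO was lower than Cas9 in 6 of 6 pairs of SK-GT-4 and higher in 6 of 6 pairs of OE33, against 0.893% of the genes tested in both lines. Of all OE33 genes tested, 9.72% were higher in 6 of 6 pairs, as were 6 of the 97 members tested there. The difference between the lines was not tested, since the SK-GT-4 values took part in the choice of members. On the log2 scale, LMCD1 was at -0.66 in SK-GT-4 and 0.94 in OE33, and CAMK1 at -0.95 and 1.09. NR1D2 was at -1.07 and 0.14, METTL6, a tRNA methyltransferase, at -0.94 and 0.32, and the pseudogene AC098614.1 at -0.43 and 0.85. LMCD1 and CAMK1 passed the test in OE33 (adjusted p = 0.000448 and 0.00125, edgeR), and the OE33 levels of CAMK1 and AC098614.1 were at most 5.00 CPM.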

How the results depend on the processing

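Of 189 recomputed summary values, 179 stayed within the limits set for change, as did 1234 of 1260 values of single genes, with 13 losing and 13 gaining a call and 0 reversing. The limits concerned size or call, and direction was checked only for called OE33 genes. Most of the summary values were counts of members called for MPS1i or the interaction. Those counts were 0 in every fit, so all changes fell among the other summary values. The SK-GT-4 median lay between -1.004 and -0.94 when all batches were used and between -1.02 and -0.93 when 1 replicate was left out, with 91 to 94 members lower in the latter. With a limit of 20 Mb, 78 members were lower, and with a mean count of at least 100, 82. With 1 replicate or library left out, the OE33 median lay between -0.00 and 0.11. Without the replicate block by batch, OE33 had 1 member called lower and 0 higher, with medians of -0.94 in SK-GT-4 and 0.04 in OE33. The number called lower in OE33 was 5 with DESeq2 and 6 when calls were made at 0.05. The number called higher was 6 without a filter, 7 with calls at 0.05 and 6 without OE33 cGAS KO DMSO replicate 2. With 1 replicate or library left out, 0 to 4 were called lower and 0 to 6 higher. The shares of all genes called under these alternatives were not computed, so these counts do not set the members apart from other genes. Of the 5 OE33 calls, LRRN1 was lost only without replicate 3 (adjusted p = 0.0269, edgeR), SLC6A6 without the block or replicate 3, and LMCD1, CAMK1 and TMEM40 without the block or replicate 1 or 3, TMEM40 also with edgeR's own filter. The cause of these changes was not tested. No alternative gave a call for MPS1i or the interaction, where each count was 0. The leave-out of the 2 SK-GT-4 libraries that stood apart and the limit at 26 Mb were chosen after seeing the data.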

Other observations

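Genes outside distal 3p whose proteins work in complexes with member proteins had differences near 0 at the median. For 53 such genes (among them FANCI for FANCD2, the Arp2/3 and WAVE subunits for ARPC4 and BRK1, the LSM proteins for LSM3 and the EMC subunits for EMC3), a list written after the members' values were seen, the SK-GT-4 median of cGAS KO minus Cas9 was -0.04 on the log2 scale, with 30 of 53 lower, and the OE33 median was -0.05, with 32 of 53 lower. No test was made on this list. In 1 of the 53, all 6 SK-GT-4 cGAS KO libraries lay below all 6 Cas9 libraries, against 3.55% of all genes tested. In 2 they lay above, against 3.61%.

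A list of 14 genes induced by hypoxia-inducible factor, written at the same stage because VHL is a member, stood at a median difference of -0.34 for SK-GT-4 (9 of 14 lower) and -0.59 for OE33 (14 of 14 lower). Over all genes tested, 51.0% were lower in SK-GT-4 and 51.7% in OE33. VHL was at -1.07 in SK-GT-4 and 0.13 in OE33, and no test was made on this list.

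On chromosome 6, which carries CGAS (chr6:73413515-73452276), the 286 expressed genes that start after CGAS stood at a median of -0.52 for SK-GT-4, with 238 lower. In 65 of them all cGAS KO libraries lay below all Cas9 libraries and in 6 above, where all genes tested gave 3.55% and 3.61%. The 395 that start before it had a median of 0.07, with 167 lower, 7 with all cGAS KO libraries below and 19 above. In OE33 these medians were -0.04 for 277 genes and -0.20 for 388. By chromosome, the SK-GT-4 medians furthest from 0 were 0.45 for the 670 expressed genes of chromosome 7, -0.38 for chromosome 10 and -0.35 for chromosome 20. These values were looked up after the distal 3p values had been seen and carry no test.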
